A study of Mus musculus with 8 samples.

Results

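A set of 35 genes that were weakly expressed in the hippocampus and lower in XBP1s-TG than in control was described here. The members were chosen by a rule applied to the TPM values (reads per length of the gene scaled so that each library sums to the same total). Every one of the 8 libraries had to lie below 14 TPM, the mean of the control libraries had to be at least 2 TPM, and the highest XBP1s-TG library had to be at most 0.75 times the lowest control library. Of the 46983 genes in the table, 4472 lay within both limits on level, and 35 of these met the rule. The rule used the comparison between the groups, so the lower level of the members in XBP1s-TG is how they were chosen and is given as a description without a test.

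RNA sequencing was done on the hippocampus of 4 XBP1s-TG mice (libraries S1 to S4), which carry TRE-XBP1s and Camk2a-tTA, and of 4 mice labelled Control (S5 to S8), all C57BL/6 at 2 months of age. The doxycycline that keeps the transgene silent had been withdrawn 7 days earlier. Whether the control mice carried one of the transgenes is not given in the labels, and the Camk2a promoter directs the transgene mainly to excitatory neurons of the forebrain, whereas the RNA came from the whole tissue. For every gene below, fewer cells of a type and less RNA per cell cannot be told apart. The study placed the transgene in an intron of Gpc6, which is itself a member. The study reported Gpc6 levels as similar in both groups. Its values were quantile normalized with low ones raised to a noise limit, whereas TPM values are described here.

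XBP1s is the transcription factor of the IRE1 branch of the unfolded protein response. It is made when IRE1 splices the Xbp1 transcript under stress of the endoplasmic reticulum, and it is known above all as an activator of genes for protein folding, secretion and degradation. In neurons of the hippocampus the pathway is also known for its part in plasticity and memory. Genes at a few TPM in bulk tissue can be low in many cells or high in few of them.

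Xbp1 itself was measured at 786, 549, 1094 and 729 TPM in S1 to S4 and at 70.4, 68.9, 71.9 and 69.7 TPM in S5 to S8, so every XBP1s-TG library lay far above every control library. Between 34906171 and 52184439 reads were assigned to genes per library, and 1 read per kilobase of exon was worth 0.0604 to 0.0900 TPM. S1 and S3 stood apart in 18 genes of the choroid plexus, a tissue that lies against the hippocampus, with summed levels of 229.9 and 361.7 TPM against 4849 to 10794 TPM in the other 6 libraries. S8 was the lowest control library in 2771 of the 4472 genes within both limits. Marker sums of dentate granule neurons ran from 788.6 to 857.2 TPM in XBP1s-TG and from 950.1 to 1053 TPM in control, without overlap, and 7 of the 27 genes of that list were lower in the limma fit explained below while no gene was higher (2 had a higher level at an unadjusted p under 0.05, and voom called none higher). None of its genes was at 0 in all libraries. Sums over 29 genes of pyramidal neurons overlapped, at 4645 to 5013 TPM against 4754 to 5205 TPM, with 4 genes lower and 1 higher. At an unadjusted p under 0.05, 17 genes of either list were lower, and the median log2 fold changes were -0.29 for pyramidal and -0.32 for granule neurons. Sums over 22 interneuron genes were higher in XBP1s-TG without overlap, at 3227 to 3898 TPM against 2774 to 2955 TPM, but no gene was called. Of 12 tested genes of hypothalamus and limbic areas, 3 were higher and none lower, with a median log2 fold change of 0.68. Of all 15488 genes in the fit, 3236 were lower and 2885 higher even at an adjusted p below 0.05 alone. Counts at an unadjusted p, here and below, are to be read against a background at least that large. The 35 members hold no gene of any of the cell type lists, and the part of cell composition in their levels was not tested.

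The 35 members make up 0.783% of the genes within both limits. The same rule turned upward, with the groups exchanged, was met by 224 of 4606 genes (4.86%). Among the 4472 genes the median ratio of group means was 0.990, and among the members it was 0.502, with a range from 0.276 to 0.661. In 17 of the 35 genes the XBP1s-TG mean was at most 0.5 times the control mean. Control means ran from 2.08 to 11.0 TPM with a median of 5.60 TPM, close to the median of 5.22 TPM of all genes within both limits. XBP1s-TG means ran from 0.729 to 6.76 TPM. The coefficient of variation had a median of 8.90% among the control libraries and of 17.4% among the XBP1s-TG libraries of the members.

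**Figure D1:**
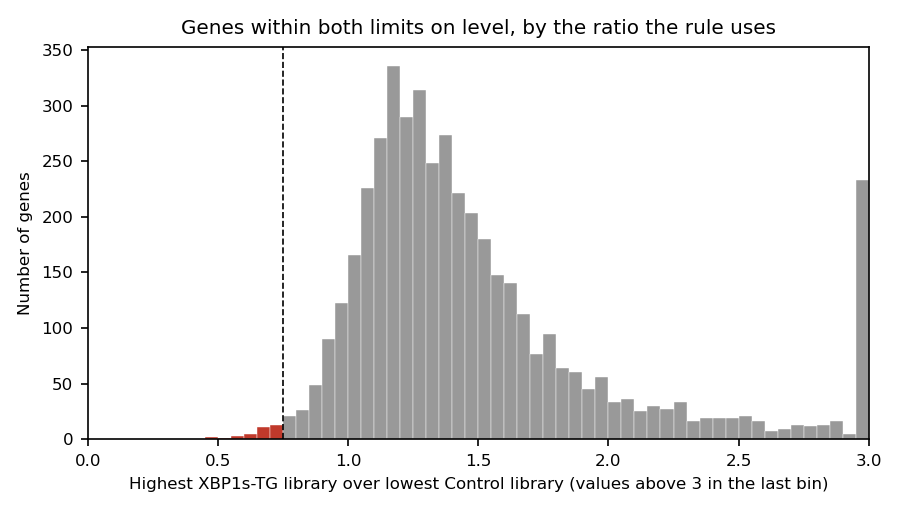
Number of genes (vertical axis) by the ratio of the highest XBP1s-TG library to the lowest control library (horizontal axis) for the 4472 genes within both limits. Red bars left of the dashed line at 0.75 are the 35 members, and most genes lie above 1, with a median of 1.36.

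The rule reads the extremes of the groups and the edge of the set was not a gap. Dctd, Dazl and Gm26794 lay just inside at ratios of 0.746, 0.748 and 0.7495. Slc35f4, Egr2 and Htr1b lay just outside at 0.767, 0.769 and 0.769. Another 308 genes within both limits had no overlap downward but a ratio above 0.75, which with the members came to 343 genes (7.67%). Htr1b is a serotonin receptor and Egr2 a transcription factor induced by neuronal activity, and their control libraries spread more widely than those of Slc35f4, a solute carrier. For Egr2 the control libraries gave 7.13, 4.36, 7.74 and 2.24 TPM, and the XBP1s-TG libraries 0.769, 1.48, 0.991 and 1.72 TPM.

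**Figure D2:**
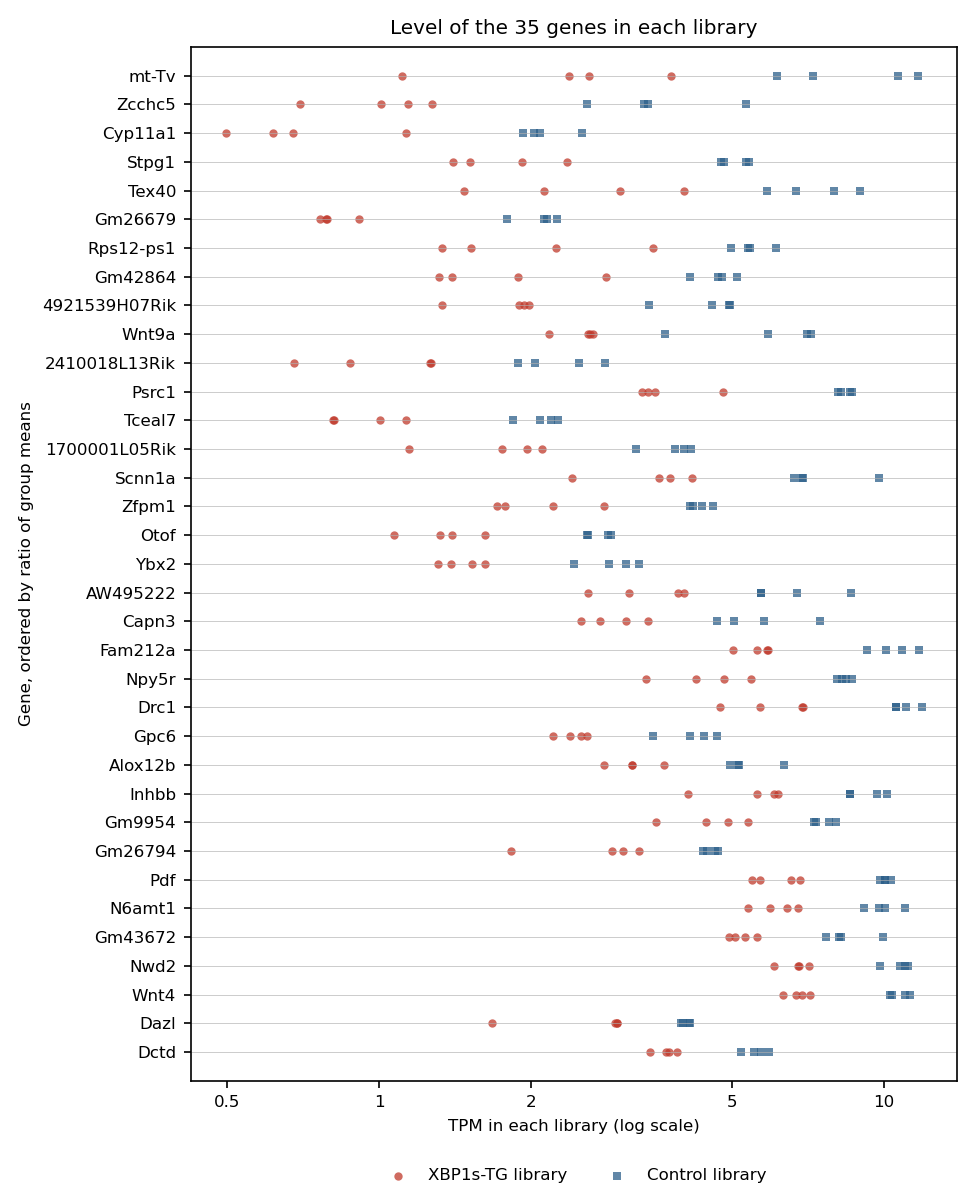
TPM of each of the 35 members (rows, ordered by the ratio of group means) in the 4 XBP1s-TG libraries (red circles) and the 4 control libraries (blue squares), on a log axis. By the rule, circles lie left of squares in every row, and the gap narrows from mt-Tv at a ratio of 0.276 to Dctd at 0.661.

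By the GENCODE annotation of the same build, 24 members are protein coding (68.6%, against 80.7% of the genes within both limits) and 6 are long intergenic RNAs (17.1% against 3.51%). The other members are 2 antisense RNAs, 1 unclassified transcript, 1 processed pseudogene and 1 mitochondrial transfer RNA. They lie on 18 chromosomes including the mitochondrial one, with 5 on chromosome 5, which holds 7% of the genes within both limits, and 4 on chromosome 8, which holds 4.32%.

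XBP1s binds DNA through elements with an ACGT core, so the promoters of the members were read for such letters. RefSeq starts on GRCm38.p6 were matched by symbol for 25 of the 35 genes, which gave 31 promoters of 300 bases, 250 before the start and 50 after it. ACGTG, on either strand, occurred in 9 of the 31 promoters (29%) and in 19.6% of all 32851 promoters of that length. The complete UPRE (TGACGTGG) and the ERSE (CCAAT and CCACG with 9 bases between) occurred in no member promoter, and in 0.676% and 0.119% of all promoters. CACGTG, which contains the core on both strands, occurred in 4 member promoters (12.9% against 7.15%). TGACG, the letters with which the UPRE begins, was less frequent in member promoters than in all promoters (12.9% against 20.8%). The letters GGGCGG (GC box) were in 54.8% of member promoters against 35.7%, TATAAA was in none against 13.6%, and the median GC content was 59% against 52.7%. A match of letters is a description of the window and says nothing of binding. The promoters below are those of the 7 protein-coding members with ACGTG, written 5′ to 3′ on the strand of the gene in lower case with ACGTG or its reverse complement CACGT in capitals.
Wnt9a, chr11:59306680-59306979, plus strand: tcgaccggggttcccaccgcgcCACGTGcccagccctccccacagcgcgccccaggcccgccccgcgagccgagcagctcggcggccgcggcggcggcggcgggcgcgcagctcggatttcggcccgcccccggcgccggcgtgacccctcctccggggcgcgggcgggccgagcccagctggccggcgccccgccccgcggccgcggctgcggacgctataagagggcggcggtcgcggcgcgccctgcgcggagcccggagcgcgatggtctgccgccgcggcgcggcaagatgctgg
Npy5r, chr8:66688045-66688344, minus strand: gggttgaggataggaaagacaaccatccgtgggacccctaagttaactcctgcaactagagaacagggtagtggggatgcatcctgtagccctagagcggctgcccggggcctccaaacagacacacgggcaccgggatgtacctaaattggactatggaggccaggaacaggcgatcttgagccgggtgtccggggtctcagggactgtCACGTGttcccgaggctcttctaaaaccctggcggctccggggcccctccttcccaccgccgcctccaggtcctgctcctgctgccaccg
Fam212a, chr9:107985867-107986166, minus strand: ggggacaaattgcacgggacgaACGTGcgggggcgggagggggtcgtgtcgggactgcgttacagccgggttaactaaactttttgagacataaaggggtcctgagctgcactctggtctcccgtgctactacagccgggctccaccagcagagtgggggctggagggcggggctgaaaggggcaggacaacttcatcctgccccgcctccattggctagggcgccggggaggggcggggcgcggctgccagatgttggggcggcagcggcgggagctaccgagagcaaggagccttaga
Tceal7, chrX:136223791-136224090, plus strand: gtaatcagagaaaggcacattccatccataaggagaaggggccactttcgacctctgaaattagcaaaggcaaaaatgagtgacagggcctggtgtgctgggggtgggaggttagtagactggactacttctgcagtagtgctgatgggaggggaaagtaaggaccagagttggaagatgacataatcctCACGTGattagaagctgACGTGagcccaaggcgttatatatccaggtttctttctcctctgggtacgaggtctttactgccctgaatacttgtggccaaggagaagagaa
Zcchc5, chrX:106840490-106840789, minus strand: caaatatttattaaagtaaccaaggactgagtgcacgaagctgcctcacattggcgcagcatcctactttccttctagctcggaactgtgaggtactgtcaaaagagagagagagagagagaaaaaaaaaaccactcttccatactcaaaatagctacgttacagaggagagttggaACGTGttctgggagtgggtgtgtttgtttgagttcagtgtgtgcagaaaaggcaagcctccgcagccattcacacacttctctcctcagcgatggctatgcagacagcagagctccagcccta
Dazl, chr17:50293571-50293870, minus strand: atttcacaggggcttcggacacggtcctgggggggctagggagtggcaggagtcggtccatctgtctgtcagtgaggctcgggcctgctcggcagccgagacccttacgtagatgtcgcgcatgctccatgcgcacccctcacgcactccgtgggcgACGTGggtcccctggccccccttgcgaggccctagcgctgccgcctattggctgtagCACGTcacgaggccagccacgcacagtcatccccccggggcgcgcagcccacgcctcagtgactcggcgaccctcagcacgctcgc
Dctd, chr8:48098842-48099141, plus strand: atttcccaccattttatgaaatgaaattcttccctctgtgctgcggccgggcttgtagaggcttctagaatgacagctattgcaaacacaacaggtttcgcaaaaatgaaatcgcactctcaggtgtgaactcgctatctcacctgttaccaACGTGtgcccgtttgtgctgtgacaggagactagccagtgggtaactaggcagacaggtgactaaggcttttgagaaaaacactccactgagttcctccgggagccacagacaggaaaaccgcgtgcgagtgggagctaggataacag
In Wnt9a, Npy5r and Tceal7 the capitals include CACGTG, the form that reads the same on both strands. In Fam212a, Zcchc5, Dazl and Dctd the core stands without that palindrome. Dctd has 3 promoters here, of which only the one shown holds ACGTG. The Wnt9a window is the richest in G and C of these at 83.3%, and the Zcchc5 window the poorest at 47%.

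Among secreted ligands, 2 Wnt genes and an activin subunit met the rule. Wnt4 (ENSMUSG00000036856, chromosome 4 from 137277489 to 137299726) encodes a Wnt ligand known for kidney and female reproductive development and for synapse formation. It was measured at 6.31, 7.14, 6.89 and 6.70 TPM in S1 to S4 and 10.4, 11.01, 10.3 and 11.3 TPM in S5 to S8, a ratio of means of 0.629 (6.76 ± 0.349 against 10.7 ± 0.481 TPM, mean ± SD, n = 4 each). It was among the most evenly expressed members, with S1 the lowest and S2 the highest of the XBP1s-TG libraries. Wnt9a (ENSMUSG00000000126, chromosome 11 from 59306928 to 59333552), a ligand known from joint formation, had the lower ratio of the pair. Its libraries gave 2.17, 2.62, 2.59 and 2.65 TPM in XBP1s-TG and 7.19, 5.90, 7.04 and 3.69 TPM in control, a ratio of 0.421 (2.51 ± 0.225 against 5.96 ± 1.62 TPM, mean ± SD, n = 4 each). S8 lay below the other 3 control libraries, and without S8 the ratio was 0.374. Inhbb (ENSMUSG00000037035, chromosome 1 from 119415465 to 119422248) encodes the beta B subunit of activin B and inhibin B. It stood at 6.18, 6.05, 4.09 and 5.61 TPM against 10.1, 9.70, 8.57 and 8.56 TPM, with S3 the lowest of all, and the ratio of means was 0.593.

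Other genes of these families were taken from lists drawn up with the members known. A gene outside the rule was called lower or higher where the limma fit across 15488 genes reached an adjusted p (Benjamini-Hochberg) below 0.05 with a change of at least 1.5-fold on the log2(TPM + 2) scale, which called 2.03% of all genes lower and 4.5% higher. The 2 TPM added before the log shrink the fold changes of weak genes and can keep them from a call. The member Otof, at a ratio of means of 0.496, had a log2 fold change of only -0.53, under 1.5-fold. A weak gene left uncalled is therefore no contrast with the members. In each list below in which limma called no gene, the unequal-variance test per gene called none either. Of 8 other Wnt ligands tested, none was lower (1 at an unadjusted p under 0.05, and 1 called by voom on the recovered reads) and 3 were higher. Wnt2 rose from 4.49 ± 0.424 to 13.4 ± 2.01 TPM (mean ± SD, n = 4 each), a log2 fold change of 1.18, SE 0.11, limma adjusted p = 7.34e-05. Wnt5a, a ligand of the noncanonical pathway, rose from 5.03 ± 0.529 to 12.01 ± 1.78 TPM (log2 fold change 0.93, SE 0.09, limma adjusted p = 8.24e-05). Wnt10b stayed weak at 2.42 ± 0.402 TPM against 0.672 ± 0.177 TPM (log2 fold change 0.68, SE 0.09, limma adjusted p = 0.000445). For each of these 3 genes the 4 XBP1s-TG libraries lay above the 4 control libraries. None of 13 frizzled and other Wnt receptors was called by limma in either direction (4 at an unadjusted p under 0.05, 1 called lower by voom). None of 14 target and antagonist genes of the beta-catenin pathway was called by limma or voom (3 at an unadjusted p under 0.05, each lower). Among 11 inhibin, activin and follistatin genes Inha, the alpha subunit that turns a beta subunit into inhibin, was the only gene called. It rose from 21.9 ± 2.55 to 39.4 ± 4.53 TPM (log2 fold change 0.68, SE 0.08, limma adjusted p = 0.00026). Inhba, the beta A subunit, was not called (log2 fold change -0.34, SE 0.22, limma adjusted p = 0.259), with 1.80, 2.66, 6.80 and 2.82 TPM in S1 to S4 against 4.12, 4.33, 4.99 and 4.34 TPM. S3 was the highest of its 8 libraries and the other 3 XBP1s-TG libraries the lowest, and without S3 Inhba was called lower, with a log2 fold change of -0.59 (adjusted p = 0.00216 in limma).

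**Figure D3:**
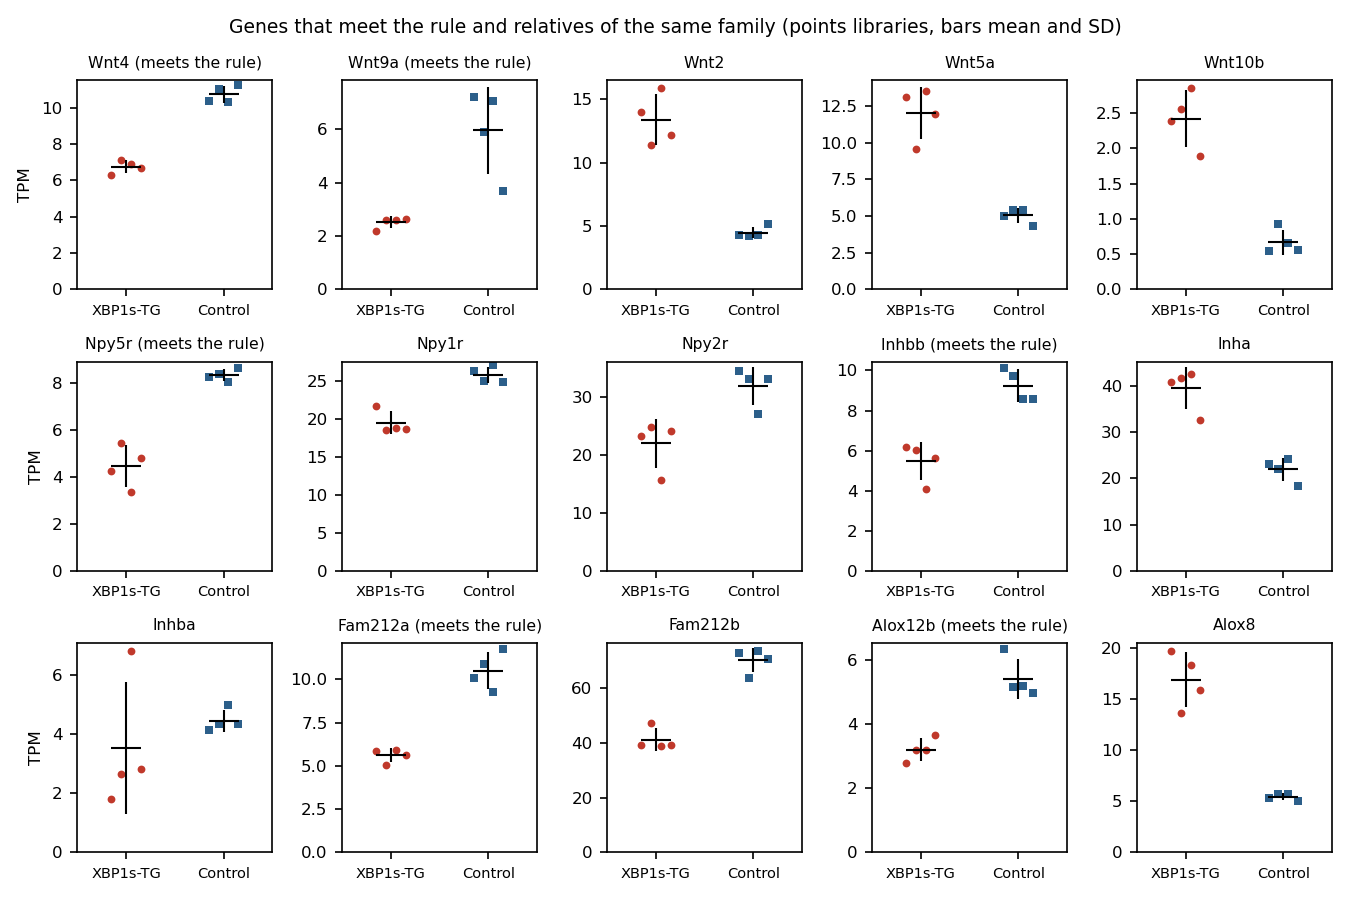
TPM (vertical axes, each from 0) in the 4 XBP1s-TG (red circles) and 4 control libraries (blue squares) for members of the set, marked as meeting the rule, and related genes of the same family, with mean and SD as black bars. Wnt4 and Wnt9a were lower while Wnt2, Wnt5a and Wnt10b were higher, Alox12b was lower while Alox8 was higher, and Fam212a and Fam212b were both lower.

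Receptors, channels and other proteins of the cell membrane gave 4 members. Npy5r (ENSMUSG00000044014, chromosome 8 from 66679965 to 66688094) encodes the Y5 receptor of neuropeptide Y, a peptide that dampens excitation in the hippocampus. Its level was 4.25, 5.45, 3.37 and 4.82 TPM in S1 to S4 and 8.28, 8.42, 8.07 and 8.67 TPM in S5 to S8, a ratio of 0.535 (4.47 ± 0.882 against 8.36 ± 0.25 TPM, mean ± SD, n = 4 each). The control libraries were nearly equal, and the XBP1s-TG libraries spread from S3 at the bottom to S2 at the top. Of the other genes of the system, Npy2r fell from 31.9 ± 3.26 to 22.00 ± 4.29 TPM (log2 fold change -0.61, SE 0.14, limma adjusted p = 0.00752). That call was lost without S3, the lowest XBP1s-TG library, at a log2 fold change of -0.47, and without S5, S8 or quantile normalization, since the change then stayed under 1.5-fold. Npy1r, whose gene neighbours Npy5r, had 21.8, 18.6, 18.8 and 18.7 TPM against 26.3, 24.99, 27.1 and 24.9 TPM and was not called (log2 fold change -0.47, SE 0.06, limma adjusted p = 0.00023). The peptide gene Npy was not called either (log2 fold change 0.21, SE 0.08, limma adjusted p = 0.0547).

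Scnn1a (ENSMUSG00000030340, chromosome 6 from 125320659 to 125344943) encodes the alpha subunit of the epithelial sodium channel. It was at 3.58, 4.16, 2.41 and 3.77 TPM against 6.64, 6.91, 9.80 and 6.90 TPM, a ratio of 0.46, and S7 was the only control library above 7 TPM. The 3 other genes tested from the list of ENaC and ASIC subunits were Asic1, Asic2 and Asic4. None was called by limma or voom, with 2 lower at an unadjusted p under 0.05. No other ENaC subunit was tested, as 3 genes of the list were too weak. Otof (ENSMUSG00000062372, chromosome 5 from 30367062 to 30461932) encodes otoferlin, the calcium sensor of vesicle release in inner hair cells. Its TPM was 1.62, 1.39, 1.07 and 1.32 in XBP1s-TG and 2.59, 2.58, 2.84 and 2.88 in control, with less spread in control (SD 0.159 TPM) than in XBP1s-TG (SD 0.226 TPM). Gpc6 (ENSMUSG00000058571, chromosome 14 from 116925297 to 117979529), the heparan sulfate proteoglycan whose intron holds the transgene, had 2.51, 2.58, 2.21 and 2.39 TPM against 4.40, 4.68, 4.13 and 3.48 TPM, close to the limit of the rule at an edge ratio of 0.74. None of the 5 other glypicans was called by limma or voom, with 3 lower and 1 higher at an unadjusted p under 0.05. The list of glypicans and heparan sulfate enzymes held 28 other tested genes, of which Extl1 was lower and Extl2 was higher. Extl1 went from 49.9 ± 2.18 to 30.7 ± 4.44 TPM (log2 fold change -0.79, SE 0.09, limma adjusted p = 0.000177) and Extl2 from 81.7 ± 6.21 to 145 ± 18.4 TPM (log2 fold change 0.69, SE 0.08, limma adjusted p = 0.000226).

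Enzymes gave 6 members. Cyp11a1 (ENSMUSG00000032323, chromosome 9 from 58006411 to 58027023), which cuts the side chain of cholesterol in the first step of steroid synthesis, had one of the lowest ratios (0.341). It was at 0.617, 1.13, 0.496 and 0.675 TPM in S1 to S4 and 2.03, 1.92, 2.52 and 2.08 TPM in S5 to S8. S2 was the highest XBP1s-TG library and still well below every control library. The gene model Gm17322 overlaps it on the same strand and was lower as well, at 3.73 ± 1.63 against 7.94 ± 1.29 TPM (log2 fold change -0.87, SE 0.17, limma adjusted p = 0.00327). Reads could not be told apart between such overlapping genes here. Of 7 other genes of steroid synthesis tested, Fdxr, the reductase that supplies electrons to Cyp11a1, was the only gene called and it was higher, at 18.9 ± 2.08 against 10.6 ± 1.33 TPM (log2 fold change 0.65, SE 0.08, limma adjusted p = 0.000211). Without S1 and S3 the change of Fdxr stayed under 1.5-fold, at 0.53 on the log2 scale.

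Alox12b (ENSMUSG00000032807, chromosome 11 from 69156989 to 69169792), a lipoxygenase of the skin barrier, was at 2.80, 3.17, 3.18 and 3.67 TPM against 6.34, 5.13, 5.17 and 4.95 TPM. The lipoxygenase Alox8 lies 14140 bases away on the opposite strand and rose from 5.45 ± 0.331 to 16.9 ± 2.70 TPM (log2 fold change 1.27, SE 0.09, limma adjusted p = 1.91e-05). Aloxe3, a lipoxygenase 7874 bases away on the same strand, was not called, nor was Alox5ap, the third other gene tested from the lipoxygenase list. Capn3 (ENSMUSG00000079110, chromosome 2 from 120456019 to 120504913), a calpain protease known from skeletal muscle, had 3.42, 2.74, 3.09 and 2.51 TPM against 4.67, 5.05, 5.79 and 7.47 TPM. S8 was the highest control library here. The exons of Ganc overlap those of Capn3 on the same strand. Ganc was higher (log2 fold change 0.31, SE 0.07, limma adjusted p = 0.00562) but under 1.5-fold, and so was not called. Of 9 other calpain genes Capn7 was called higher (log2 fold change 0.60, SE 0.08, limma adjusted p = 0.000313), and its call was lost without S1, S3 or S6 as the change then stayed under 1.5-fold.

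N6amt1 (ENSMUSG00000044442, chromosome 16 from 87354185 to 87368742) encodes a methyltransferase that modifies a translation release factor. It had the second most reads of all members in both groups, with 5.95, 6.77, 5.38 and 6.44 TPM against 10.05, 9.14, 9.77 and 11.00 TPM. Pdf (ENSMUSG00000078931, chromosome 8 from 107044698 to 107048614) encodes the peptide deformylase of mitochondria and stood at 5.47, 5.69, 6.55 and 6.82 TPM against 10.04, 9.82, 10.1 and 10.3 TPM. Its exons overlap those of Cog8 on the same strand and of Vps4a on the opposite strand, and neither was called. Dctd (ENSMUSG00000031562, chromosome 8 from 48099092 to 48153233), the deaminase that feeds thymidine nucleotide synthesis, had the highest ratio of all members (0.661), at 3.71, 3.90, 3.76 and 3.43 TPM against 5.53, 5.22, 5.93 and 5.72 TPM. None of 10 other genes of deoxynucleotide synthesis was called by limma or voom, with 4 lower and 1 higher at an unadjusted p under 0.05.

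Genes known mainly from sperm, motile cilia and the germ line gave 5 members, a grouping made with the members known. The list of dynein, kinesin and cilium genes held no member among 100 genes within both limits. Of its 267 tested genes limma called none lower and 12 higher, and voom called 4 lower and 17 higher. Over all genes, limma called 2.03% lower and 4.5% higher. Stpg1 (ENSMUSG00000028801, chromosome 4 from 135494790 to 135537803), named for repeats found in a sperm tail protein, was at 1.51, 2.35, 1.40 and 1.92 TPM in S1 to S4 and at 5.34, 4.77, 4.82 and 5.42 TPM in S5 to S8. Its ratio of 0.353 put the highest XBP1s-TG library below 0.5 times the lowest control library. Nipal3 overlaps it on the opposite strand and was not called. Tex40 (ENSMUSG00000050623, chromosome 19 from 6922426 to 6925380), also named Catsperz, is a subunit of the sperm calcium channel CatSper. Its level was 2.12, 4.01, 1.47 and 2.997 TPM against 7.97, 6.71, 8.97 and 5.87 TPM, with S3 lowest and S2 highest of the XBP1s-TG libraries. Kcnk4, a potassium channel gene 330 bases away on the same strand, shares exon sequence with it in GENCODE and fell from 13.7 ± 2.39 to 6.32 ± 1.32 TPM (log2 fold change -0.98, SE 0.13, limma adjusted p = 0.000371). The 2 other CatSper genes tested were not called by limma or voom, and neither had an unadjusted p under 0.05. Efcab9, 1 of these, averaged 0.913 TPM in control, too weak for a lower call by limma on its scale.

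Drc1 (ENSMUSG00000073102, chromosome 5 from 30281388 to 30366695) encodes a subunit of the dynein regulatory complex of motile cilia and had the highest control mean of all members. It was at 6.92, 5.70, 4.74 and 6.88 TPM against 10.6, 11.1, 11.9 and 10.6 TPM (6.06 ± 1.04 against 11.03 ± 0.634 TPM, mean ± SD, n = 4 each), without overlap. The summed level of 12 ependymal genes, the cells that carry motile cilia in the ventricle wall, was 73.1, 88.1, 60.3 and 115 TPM in S1 to S4 and 77.1 to 112 TPM in control. The 2 groups overlapped in that sum, and its part in the level of Drc1 was not tested. None of 6 other genes of the complex was called by limma (3 lower at an unadjusted p under 0.05, 1 called lower by voom). The same held for the 12 ependymal genes (3 lower at an unadjusted p under 0.05, 2 called lower by voom). Drc1 and Otof lie tail to tail on chromosome 5, 367 bases apart.

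Dazl (ENSMUSG00000010592, chromosome 17 from 50279394 to 50293599) and Ybx2 (ENSMUSG00000018554, chromosome 11 from 69935796 to 69941605) encode RNA-binding proteins of germ cells. Dazl was at 2.96, 2.96, 1.67 and 2.94 TPM against 4.13, 3.96, 3.999 and 4.12 TPM, and its ratio of 0.65 rested in part on S3, which lay far below the other 3 XBP1s-TG libraries. Dazl left the set when the values were quantile normalized. Ybx2 was at 1.53, 1.62, 1.31 and 1.39 TPM against 2.85, 3.27, 2.43 and 3.08 TPM. None of 8 other germ cell RNA-binding genes tested was called by limma, with 1 lower and 2 higher at an unadjusted p under 0.05 and 1 called higher by voom.

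Regulators in the nucleus and cytoplasm gave 6 members. Zcchc5 (ENSMUSG00000047686, chromosome X from 106837082 to 106840644), also named Rtl3, derives from the Gag gene of a retrotransposon. It had 1.27, 1.14, 0.696 and 1.01 TPM in XBP1s-TG and 2.58, 3.42, 3.35 and 5.33 TPM in control, a ratio of 0.28, the lowest of the protein-coding members. The control libraries spread widely, with S8 the highest and S5 the lowest. None of 9 other genes derived from retrotransposon Gag sequences was called by limma, with 2 lower and 3 higher at an unadjusted p under 0.05 and 1 called higher by voom. Zfpm1 (ENSMUSG00000049577, chromosome 8 from 122282141 to 122337251) encodes FOG1, a cofactor of GATA transcription factors. It was at 2.21, 2.79, 1.71 and 1.77 TPM against 4.12, 4.59, 4.18 and 4.37 TPM. The 2 other genes of GATA factors and their cofactors tested were not called by limma or voom, with 1 lower at an unadjusted p under 0.05.

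Psrc1 (ENSMUSG00000068744, chromosome 3 from 108383839 to 108388231) encodes a microtubule-binding protein of the mitotic spindle. Its libraries gave 3.41, 4.79, 3.52 and 3.32 TPM and 8.11, 8.65, 8.23 and 8.56 TPM, with S2 above the other 3 XBP1s-TG libraries. Fam212a (ENSMUSG00000042106, chromosome 9 from 107984223 to 107985879), also named Inka1, encodes an inhibitor of the kinase PAK4. It stood at 5.88, 5.02, 5.90 and 5.61 TPM against 10.1, 10.9, 9.25 and 11.8 TPM (5.60 ± 0.408 against 10.5 ± 1.07 TPM, mean ± SD, n = 4 each), among the members with the smallest spread in XBP1s-TG. Its relative Fam212b fell from 70.3 ± 4.41 to 41.2 ± 4.19 TPM (log2 fold change -0.86, SE 0.08, limma adjusted p = 6.24e-05). The other 6 tested genes of that list were not called by limma, whereas voom called 2 of the 7 lower and 1 higher, and at an unadjusted p under 0.05 limma had 4 lower and 1 higher.

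Tceal7 (ENSMUSG00000079428, chromosome X from 136214779 to 136226100) belongs to a family of X-linked proteins related to transcription elongation factor A. It was at 1.002, 1.13, 0.81 and 0.814 TPM against 2.19, 2.26, 1.85 and 2.09 TPM, from only 55 and 133 reads over the 4 libraries of each group. Bex1 overlaps it on the opposite strand and fell from 95.9 ± 4.30 to 62.6 ± 11.6 TPM (log2 fold change -0.73, SE 0.12, limma adjusted p = 0.0011). Of 9 other TCEAL and BEX genes tested, Bex1 and Bex4 were lower while Wbp5 and Tceal8 were higher, and the call of Bex4 was lost without quantile normalization. Wbp5, the next gene on the chromosome, rose from 155 ± 9.48 to 255 ± 29.6 TPM (log2 fold change 0.60, SE 0.07, limma adjusted p = 0.000141), and its call was lost without S3 or S6. Nwd2 (ENSMUSG00000090061, chromosome 5 from 63649102 to 63810546) encodes a protein with NACHT and WD repeat domains and had the most reads of the set, 3335 and 5809 over the 4 libraries of each group. Its level was 6.75, 7.12, 6.06 and 6.79 TPM against 11.04, 11.2, 10.8 and 9.84 TPM.

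Noncoding members were 11. Gm9954 (ENSMUSG00000104868, chromosome 5 from 63646170 to 63650894) starts within Nwd2 on the opposite strand and was lower as well, at 4.92, 5.38, 3.53 and 4.44 TPM against 8.05, 7.78, 7.34 and 7.26 TPM. The exons of these genes overlap, and since the use of strand in counting is not stated, reads of the pair may be shared. Gm26794 (ENSMUSG00000097837, chromosome 2 from 55433514 to 55437860) overlaps Kcnj3, a potassium channel gene on the opposite strand, and had 2.89, 3.05, 1.83 and 3.28 TPM against 4.37, 4.63, 4.69 and 4.46 TPM. Kcnj3 itself went from 98.5 ± 6.28 to 72.8 ± 7.79 TPM and was not called (log2 fold change -0.55, SE 0.08, limma adjusted p = 0.000787), though it was called lower without S2 at a log2 fold change of -0.60. Gm26679 (ENSMUSG00000097903, chromosome 14 from 120384263 to 120388985) lies opposite Mbnl2 and was at 0.764, 0.913, 0.785 and 0.789 TPM against 2.12, 2.25, 1.79 and 2.15 TPM. Mbnl2, by contrast, rose from 164 ± 18.8 to 222 ± 10.9 TPM, without overlap (log2 fold change 0.33, SE 0.07, limma adjusted p = 0.00683). It was not called because the change stayed under 1.5-fold. In the other antisense RNA, AW495222 (ENSMUSG00000087334, chromosome 13 from 93706182 to 93719175), the libraries gave 3.13, 3.91, 2.59 and 4.02 TPM and 8.62, 5.70, 6.74 and 5.70 TPM.

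The other long intergenic RNAs were 4921539H07Rik, 2410018L13Rik, 1700001L05Rik, Gm42864 and Gm43672. In 4921539H07Rik (ENSMUSG00000104586, chromosome 3 from 58117053 to 58167616) the XBP1s-TG libraries gave 1.93, 1.98, 1.33 and 1.89 TPM and the control libraries 4.56, 3.42, 4.94 and 4.96 TPM. For 2410018L13Rik (ENSMUSG00000073164, chromosome 12 from 22953997 to 23010284) the values were 0.676, 1.26, 0.877 and 1.27 TPM and 2.04, 2.81, 2.48 and 1.89 TPM. S3 was the lowest library of the first and S1 of the second. 1700001L05Rik (ENSMUSG00000075511, chromosome 15 from 83357526 to 83367282) was at 1.75, 2.10, 1.15 and 1.96 TPM against 4.15, 3.87, 4.02 and 3.23 TPM, 7279 bases from Arfgap3. Arfgap3, which regulates traffic through the Golgi apparatus, rose from 20.9 ± 1.72 to 73.9 ± 12.4 TPM (log2 fold change 1.61, SE 0.09, limma adjusted p = 5.08e-06). Gm42864 (ENSMUSG00000105152, chromosome 5 from 112649367 to 112652112) had 1.40, 2.82, 1.32 and 1.88 TPM against 4.13, 4.69, 5.13 and 4.79 TPM. Gm43672 (ENSMUSG00000106019, chromosome 3 from 22074412 to 22076142) had 4.93, 5.61, 5.08 and 5.31 TPM against 8.24, 9.95, 7.68 and 8.14 TPM, and S6 was above the other 3 control libraries.

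The last pair rested on the fewest reads. The mitochondrial transfer RNA mt-Tv (ENSMUSG00000064338, chromosome MT from 1025 to 1093) had the lowest ratio of all members (0.276), at 3.79, 1.11, 2.38 and 2.61 TPM against 6.13, 7.24, 11.7 and 10.7 TPM, but from only 8 and 31 reads over the 4 libraries of each group and with 1 to 9 reads per library. Among the other 31 mitochondrially encoded genes tested, 6 were lower by limma and 3 by voom, and none was higher by either, or at an unadjusted p under 0.05. The summed level of the mitochondrially encoded genes was 155496 to 183042 TPM in XBP1s-TG and 201384 to 227219 TPM in control, without overlap, and its part in the level of mt-Tv was not tested. Of the 6 genes mt-Tm fell from 207 ± 34.7 to 125 ± 8.18 TPM (log2 fold change -0.81, SE 0.12, limma adjusted p = 0.000654) and mt-Tl1 from 170.4 ± 13.4 to 112 ± 19.9 TPM (log2 fold change -0.71, SE 0.12, limma adjusted p = 0.00168). Transfer RNAs are short, and libraries made for messenger RNA are not designed to measure them. Rps12-ps1 (ENSMUSG00000082746, chromosome X from 103489517 to 103489917), a processed pseudogene of a ribosomal protein, had 1.52, 1.33, 3.48 and 2.25 TPM against 5.43, 4.98, 5.38 and 6.13 TPM from 41 and 114 reads. It was the only member with S3 the highest XBP1s-TG library by a wide margin, and reads of it are uncertain because they resemble those of its parent gene.

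Counting error was small against the difference for most members. Reads over all XBP1s-TG libraries reached 100 in 31 of the 35 members, and single libraries held 1 to 1904 reads. The 95% interval of the ratio of read rates, from the exact conditional binomial test of the pooled reads and covering counting error only, lay below 0.75 in each of the 35 members, the highest upper bound being 0.738. That interval was 0.111 to 0.623 for mt-Tv, 0.237 to 0.345 for Zcchc5 and 0.597 to 0.65 for Nwd2. Since these reads chose the members, the intervals describe precision and are no test.

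**Figure D4:**
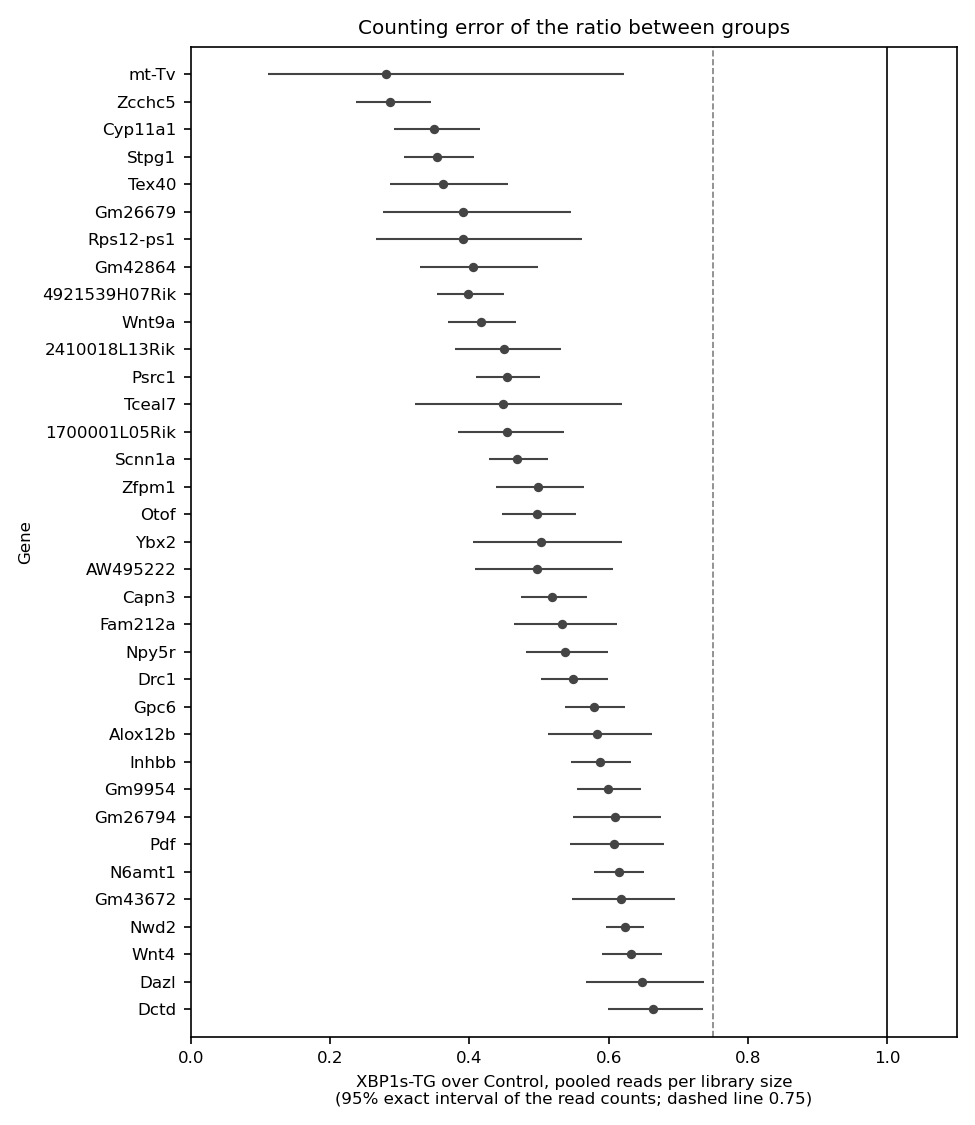
Ratio of pooled reads per library size in XBP1s-TG over control (horizontal axis) for each member (rows), with the exact 95% interval of the read counts as bars. All upper bounds lie left of the dashed line at 0.75, with mt-Tv the widest interval at 0.111 to 0.623.

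The rule read the highest XBP1s-TG library but not which of the 4 it was. The order of these libraries comes from the same values that chose the members and is given as a description. S3 was the lowest of them in 22 of the 35 members (62.9%, against 33.2% of all genes within both limits), and S2 was the highest in 20 (57.1% against 26.8%). The median level relative to the control mean was 0.557 in S2, 0.514 in S4, 0.513 in S1 and 0.413 in S3. Xbp1 stood in the opposite order, lowest in S2 and highest in S3. The full order S2, S4, S1, S3 from highest to lowest occurred in 9 members (25.7%) and in 6.66% of the genes within both limits. Among the 224 genes of the upward rule S3 was the highest XBP1s-TG library in 58.9% and S2 the lowest in 61.6%. Zfpm1, Npy5r, Tex40 and Gm9954 show the low S3 and high S2 in their values above, whereas Capn3, Fam212a, Pdf and Rps12-ps1 had other orders. With 4 libraries, and with genes that share them, no test of this order was made. S1 and S3 are also the libraries with the low choroid plexus sums, and both lay below S2 and S4 in 15 members (42.9%, against 22.7% of the genes within both limits). Its part in the order was not tested. With S2 and S4 as the only XBP1s-TG libraries, 60 genes met the rule, the 35 members among them, since fewer libraries can only relax it.

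**Figure D5:**
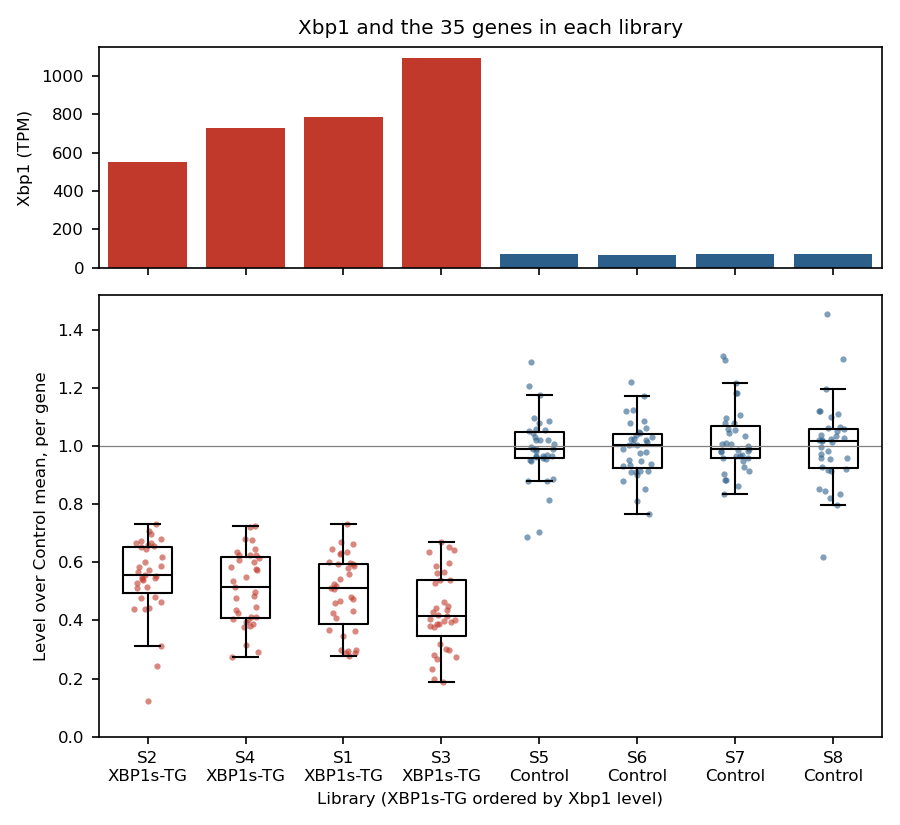
Above, Xbp1 in TPM for each library. Below, the level of each of the 35 members over its control mean (points, with boxes for quartiles and median, and whiskers to the farthest point within 1.5 times the box). The XBP1s-TG libraries (red) are ordered by Xbp1, and the medians of the members run from 0.557 in S2 to 0.413 in S3, whereas the control libraries (blue) lie around 1.

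Neighbouring genes on the chromosome were compared with the members. Of the 66 nearest genes that are no members and whose deposited positions do not overlap one, 61 could be tested, 57 were not called, 1 was lower and 3 were higher, and their median ratio of group means was 1.05. Kcnk4, which shares exon sequence with Tex40 in GENCODE, was the lower gene. Arfgap3, Wbp5 and Alox8 were the higher genes. By GENCODE, exons of 10 members overlapped those of another gene at 1 TPM or more, Tex40 and Kcnk4 among them.

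Among 45 lists of gene families, pathways and cell types, 8 held a member. Over all genes, limma called 2.03% lower and 4.5% higher, and 0.783% of the genes within both limits were members. Counts near these shares say nothing particular about a list. Growth factors and their receptors held Wnt4, Wnt9a and Inhbb among 50 genes within both limits, and of the 113 other genes tested 5 were lower and 4 higher. In the receptors of monoamines, acetylcholine and peptides, which held Npy5r among 36 such genes, 5 of 73 others were lower and 3 higher. Zfpm1 was the only member of 179 zinc finger genes within both limits, and of 399 others tested 1 was lower and 13 were higher, with a median log2 fold change of 0.06 on the log2(TPM + 2) scale. TMEM and FAM genes, with Fam212a the only member of 86 within both limits, gave 8 lower and 20 higher of 378. Gene models without a family name held 9 members of 926 genes within both limits, and of 2083 others 26 were lower and 82 higher. Rps12-ps1 was the only member of 72 ribosomal protein genes within both limits, and of 278 others 2 were lower and 1 was higher. The lists for the unfolded protein response and for regulation by neuronal activity held no member, but only 1 and 6 of their genes lay within both limits. By limma, 26 of 30 genes of the former were higher, and of 41 genes of the latter 8 were lower and 1 was higher.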

How the data were processed

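Hippocampal RNA of 4 XBP1s-TG and 4 control mice was sequenced from stranded mRNA libraries. Reads were checked with FastQC, trimmed with Trimmomatic and mapped to GRCm38, and reads per gene were normalized to TPM values, which the authors deposited for 46983 genes. Use of strand in counting is not stated. The table also holds group means and a p-value per gene deposited by the authors, which were not used. Columns of per-sample values not used numbered 0. Groups follow the labels. P-values set the difference between the groups against the spread among the libraries within each group.

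The members, the lists of related genes and the tests were chosen with earlier results of these data known. The 12 members with the lowest ratio of means, the 12 with the highest control mean, the 3 genes on each side of the limit, up to 5 members and up to 2 other genes per direction of each list, and Xbp1, Gpc6 and Ttr were to be named. The other members, Kcnk4, Gm17322, Kcnj3, Mbnl2, Arfgap3 and other neighbours, Npy, Npy1r and Inhba were chosen after their values were seen. Other genes were fitted with limma 3.58.1 in R 4.3.3 (lmFit, eBayes with a trend) on quantile normalized log2(TPM + 2), for 15488 genes with a mean of at least 1 TPM. A call needed an adjusted p (Benjamini-Hochberg) below 0.05 and a change of at least 1.5-fold. The fit was also run on counts simulated around the control means with known changes. That simulation held no library effects like those of S1, S3 and S8, and its outcome is not given here. The TPM values of a library stand in whole-number ratios, from which reads were recovered (tolerance 0.001) for 29237 of 29237 genes above 0 TPM (100%), and voom on these reads, an alternative test, called 494 genes lower and 1048 higher. Exact 95% intervals of ratios of pooled reads used SciPy 1.17.1 and cover counting error only. Exons and gene types are from GENCODE M21 and promoters from RefSeq, both on GRCm38. Alternatives changed the limits of the rule, the scaling, the pseudocount, the filter, the variance model and the libraries used.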

Additional observations from a re-analysis of the deposited data

Results flagged for a closer look

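Among the 70 groups of 4 libraries formed by the 35 members, 7 held a library set apart from the other 3, with a gap to the nearest library that passed Dixon's 95% critical value. Chance flags about 1 in 20 such groups. Psrc1 was 4.79 TPM in S2 against 3.32 to 3.52 TPM in the other XBP1s-TG libraries, and Gm26679 was 0.913 TPM in S2 against 0.764 to 0.789 TPM. S3 was the low library of 4921539H07Rik, at 1.33 TPM against 1.89 to 1.98 TPM, and of Dazl, at 1.67 TPM against 2.94 to 2.96 TPM. Wnt9a was 2.17 TPM in S1 against 2.59 to 2.65 TPM. Among control libraries, Alox12b was 6.34 TPM in S5 against 4.95 to 5.17 TPM, and Scnn1a was 9.80 TPM in S7 against 6.64 to 6.91 TPM.

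Of the 58 groups of other genes named, 6 held such a library. Fam212b was 47.5 TPM in S2 against 38.8 to 39.4 TPM, Npy1r was 21.8 TPM in S1 against 18.6 to 18.8 TPM, and Bex4 was 40.3 TPM in S1 against 29.4 to 31.0 TPM. Inha was 32.7 TPM in S4 against 40.8 to 42.4 TPM, and Npy2r was 15.6 TPM in S3 against 23.3 to 24.9 TPM. Wnt2 was 5.12 TPM in the control library S8 against 4.24 to 4.32 TPM. No explanation of these single libraries was tested.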

How the results depend on the processing

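The number of genes that met the rule went from 35 to 14 at a ratio of 0.67, 82 at 0.85 and 53 with an upper level of 20 TPM. Leaving out each library in turn gave 40 to 77 genes, always with all 35 members, the highest without S8 and 56 without S2. Without S1 and S3, chosen after seeing the data, 60 genes met it. Median scaling gave 43 genes and quantile normalized values 49, of which 34 were members (Dazl was lost). Median scaling divided S8 by 0.920 and S3 by 1.04. Of 385 alternative values of the members' ratios, 380 moved by less than 1 SD of the XBP1s-TG libraries. Leaving out 1 XBP1s-TG library, or S1 and S3 together, cannot move a ratio by 1 SD. For those settings the outcome was fixed in advance, so the count is no measure of stability.

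The limma fit called 314 genes lower and 697 higher. Lower calls numbered 508 with a pseudocount of 0.1, 191 without quantile normalization, 191 without S1 and S3 and 494 with voom, and voom called 1048 genes higher. Without quantile normalization 919 genes were higher, and the median log2 fold change was 0.04 in place of -0.04. With each library left out, 232 to 402 genes were lower and 629 to 809 higher. Of 517 alternative values of the 29 other named genes, 497 kept direction and call, 14 lost the call, 5 gained it and 1 reversed. The last was Ttr, a choroid plexus gene, at 0.32 on the log2 scale without S1 and S3 (adjusted p = 0.49 in limma) and -2.77 with all libraries. The cause of these shifts was not tested. No paired analysis was possible because the columns carry no replicate numbers. Members at few reads, such as mt-Tv and Rps12-ps1, are limited by depth.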
